A study of Mus musculus with 26 samples.

Results

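The lipid genes of the sebaceous gland were followed in the ear skin of mice with MC903-induced dermatitis. The set holds 10 genes of 57010 in the count table, chosen by name for their part in sebum synthesis: *Scd3*, *Elovl3*, *Fa2h*, *Far2*, *Awat1*, *Awat2*, *Dgat2l6*, *Soat1*, *Cidea* and *Mc5r*. All 10 were among the 20167 genes with enough counts to be tested. RNA came from ear biopsies of 26 female wild-type Balb/cAnNRj mice, 8 weeks old when purchased, each mouse giving 1 library. In 8 mice the right ear received MC903 and topical RGRN-305, in 4 MC903 and topical dexamethasone, in 8 MC903 and drug-vehicle, and in 6 vehicle and drug-vehicle. MC903 (calcipotriol, a vitamin D analogue that gives an inflammation resembling atopic dermatitis) was given at 1 nmol per day for 6 days. RGRN-305 (an inhibitor of the chaperone HSP90) was given at 1 mg per day and dexamethasone (a glucocorticoid) at 20 nmol per day, and ears were taken on day 9. The groups are called RGRN-305, dexamethasone, MC903 and vehicle mice below. The first 3 all carry MC903, no group received RGRN-305 or dexamethasone without it, and all agents were dissolved in ethanol. Each drug was given at 1 dose and a single time was sampled.

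Sebaceous glands are appended to hair follicles, and their sebocytes fill with lipid droplets and then burst to release sebum onto the skin surface. Mouse sebum is made of wax esters, sterol esters and triglycerides. The fatty acids are elongated, desaturated and hydroxylated, a part is reduced to fatty alcohols, and acyltransferases join acid to alcohol or sterol. The melanocortin 5 receptor, *Mc5r*, is known in mice as a regulator of sebum output.

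Libraries held 20020975 to 26516232 counts in RGRN-305 mice, 20625369 to 28838836 in dexamethasone mice, 14311046 to 28036747 in MC903 mice and 13695023 to 35130972 in vehicle mice. The lowest count of any of the 10 genes in a library was 77. *Cyp24a1*, a target of the vitamin D receptor, was at 1594 to 2537 CPM (counts per 1e+06 counts, with library sizes scaled by TMM factors) in RGRN-305 mice, 3295 to 5309 CPM in dexamethasone mice, 1973 to 2780 CPM in MC903 mice and 0 to 0.687 CPM in vehicle mice. *Fkbp5*, which glucocorticoids induce, was at 158 to 218 CPM in dexamethasone mice, against 53.5 to 63.0 CPM in MC903 mice. *Tsc22d3*, also induced by glucocorticoids, was at 117 to 235 CPM in dexamethasone mice, 38.9 to 57.6 CPM in MC903 mice and 86.7 to 119 CPM in vehicle mice. No library went against its MC903 or dexamethasone label by *Cyp24a1* and *Fkbp5*, and *Tsc22d3* set dexamethasone mice apart from MC903 mice but not from vehicle mice. None of these genes checks the RGRN-305 label, and *Cyp24a1* overlapped between RGRN-305 and MC903 mice.

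The promoters of 4 of the genes are shown, since the results turn on how these genes differ. *Scd3* is the member with the deepest fall under MC903 alone, and *Awat1*, *Awat2* and *Dgat2l6* are neighbouring acyltransferase genes of the X chromosome that moved apart. Each line gives the 250 bases before the start of the canonical transcript in GRCm39, 5′ to 3′, and capitals mark a motif found. The windows are chr19:44191458-44191707, plus strand for *Scd3*, chrX:99615607-99615856, plus strand for *Awat1*, chrX:99456213-99456462, minus strand for *Awat2*, and chrX:99568197-99568446, plus strand for *Dgat2l6*.
Scd3: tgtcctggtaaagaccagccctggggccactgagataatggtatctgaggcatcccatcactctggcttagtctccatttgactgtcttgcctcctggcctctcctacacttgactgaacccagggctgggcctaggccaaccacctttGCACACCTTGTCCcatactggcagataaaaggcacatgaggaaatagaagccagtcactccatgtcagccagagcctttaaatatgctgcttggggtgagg
Awat1: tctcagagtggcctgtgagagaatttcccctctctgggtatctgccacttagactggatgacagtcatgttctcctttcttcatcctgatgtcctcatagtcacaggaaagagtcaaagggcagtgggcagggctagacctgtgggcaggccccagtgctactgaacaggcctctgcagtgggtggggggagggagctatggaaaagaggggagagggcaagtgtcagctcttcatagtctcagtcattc
Awat2: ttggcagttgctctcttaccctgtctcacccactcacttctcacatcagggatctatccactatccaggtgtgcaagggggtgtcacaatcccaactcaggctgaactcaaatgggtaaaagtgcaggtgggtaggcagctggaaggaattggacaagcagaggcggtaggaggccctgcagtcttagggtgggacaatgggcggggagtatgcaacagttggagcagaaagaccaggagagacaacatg
Dgat2l6: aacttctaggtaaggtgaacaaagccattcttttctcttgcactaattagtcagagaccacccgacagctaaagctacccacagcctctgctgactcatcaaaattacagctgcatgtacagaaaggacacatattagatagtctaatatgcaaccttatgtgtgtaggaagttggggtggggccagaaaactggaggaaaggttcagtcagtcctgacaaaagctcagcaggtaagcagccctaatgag

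Motifs were searched on both strands in the 10 promoters and in all 21751 promoters of the same length. The capitals in *Scd3* are a glucocorticoid receptor palindrome (G, any base, ACA, any 3 bases, TGT, any base, C), which lay 101 to 89 bases before the start. It was in 1 of the 10 promoters and in 0.299% of all promoters. The nuclear receptor half-site AGGTCA was in 0 of the 10 and in 13.1% of all. Its direct repeat with 1 base between the half-sites, with up to 2 mismatches, was in 0 of the 10 and in 2.91% of all. The E-box CACGTG was in 0 of the 10 and in 6.26% of all, and TATAAA in 0 of the 10 and in 11.9% of all. The direct repeat contains the half-site where it matches without mismatch. A match describes the letters only, and no match says only that these letters were not in the window.

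Most of the 10 genes rose in RGRN-305 mice and fell in dexamethasone mice against MC903 mice, and most fell in MC903 mice against vehicle mice. In RGRN-305 mice against MC903 mice *Awat1*, *Mc5r*, *Elovl3* and *Dgat2l6* were not called. In dexamethasone mice against MC903 mice *Dgat2l6* rose and *Scd3* was not called. Neither *Awat1* nor *Awat2* was called in MC903 mice against vehicle mice. Genes were called at an adjusted p below 0.05 in edgeR's quasi-likelihood test over all 20167 genes. Of the 10, 6 rose in RGRN-305 mice against MC903 mice, where 18.6% of all genes rose, and 0 fell, where 19.4% of all genes fell. In dexamethasone mice against MC903 mice, 1 rose (23.0% of all genes) and 8 fell (23.3% of all genes). In MC903 mice against vehicle mice, 0 rose (34.5% of all genes) and 8 fell (35.7% of all genes). Each count of 0 was also 0 at an unadjusted p below 0.05 and by DESeq2. By DESeq2, 2 rose in dexamethasone mice against MC903 mice (*Scd3* beside *Dgat2l6*) and 7 fell in MC903 mice against vehicle mice (without *Dgat2l6*). The median log2 fold change of the 10 was 0.36, -0.68 and -0.69 in these 3 comparisons, and that of all genes was 0.03, 0.00 and -0.02. The comparisons share the MC903 mice, so a level that is low in these mice by chance would enter each of them. In a biopsy of whole skin, fewer sebocytes, less RNA of these genes per sebocyte and more RNA from other cells cannot be told apart.

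The treatments were also compared with each other and with vehicle mice. Of the 10, 8 rose in RGRN-305 mice against dexamethasone mice (17.6% of all genes) and 0 fell (17.8% of all genes). Against vehicle mice, 1 rose in RGRN-305 mice (30.3% of all genes) and 5 fell (29.5% of all genes). In dexamethasone mice, 0 rose against vehicle mice (26.4% of all genes) and 8 fell (29.4% of all genes). The counts of 0 were again 0 at an unadjusted p below 0.05 and by DESeq2. The median log2 fold change of the 10 was 1.20, -0.22 and -1.54 in these comparisons.

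**Figure D1:**
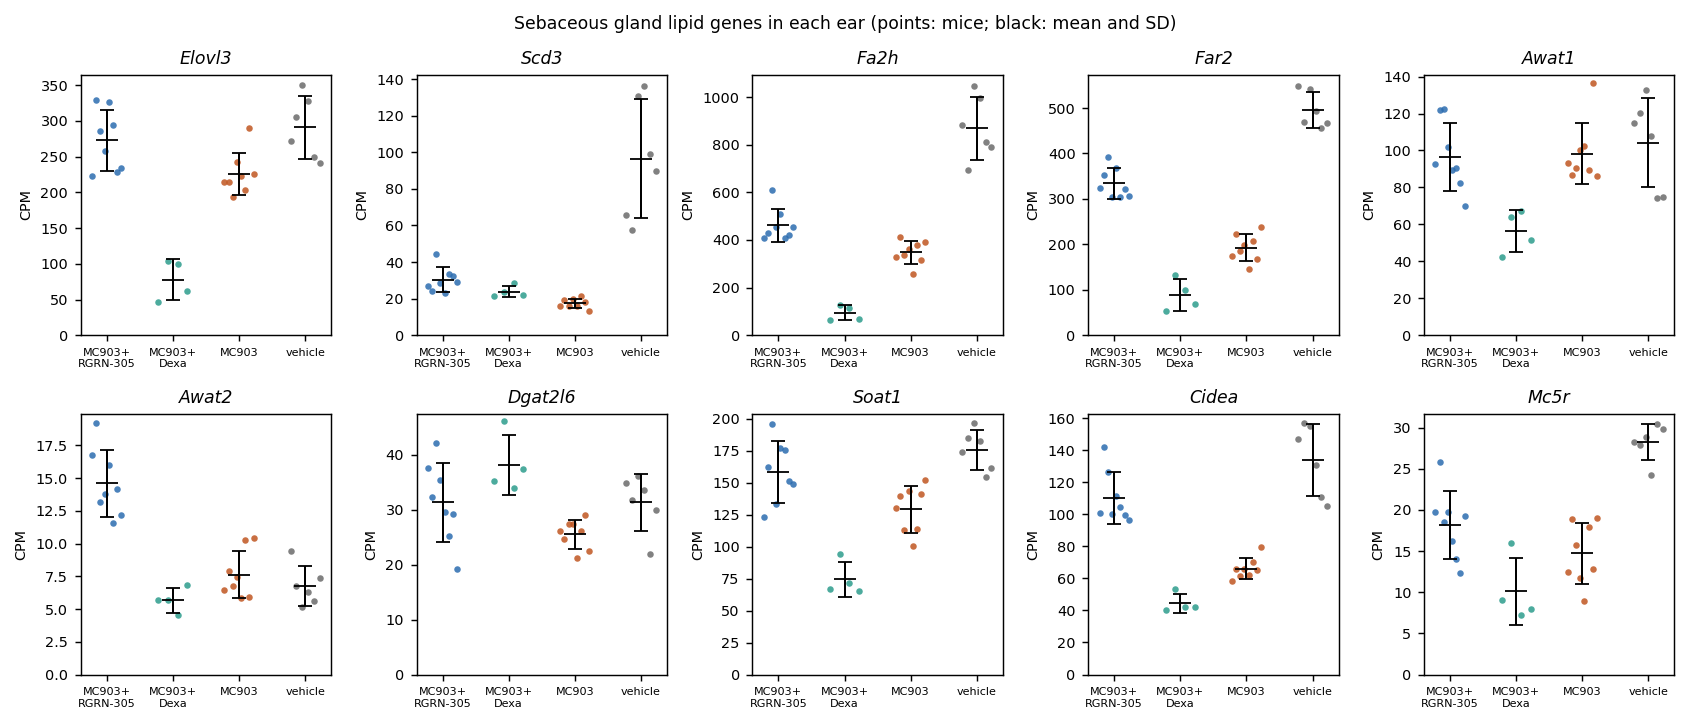
CPM of each of the 10 genes (y axis, linear, from 0) in each mouse (points) of the 4 groups (x axis), with the group mean and SD in black. *Elovl3*, *Fa2h*, *Far2* and *Soat1* are lowest in dexamethasone mice, *Scd3* is far above all other groups in vehicle mice, *Awat2* is highest in RGRN-305 mice, and *Dgat2l6* in the 4 dexamethasone mice is above all MC903 mice.

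*Scd3*, *Elovl3* and *Fa2h* act on the acyl chain. *Scd3* (ENSMUSG00000025202, chr19:44191708-44232455) encodes a desaturase that is found in sebocytes of mice. It was at 22.9 to 44.5 CPM in RGRN-305 mice (median 29.05), at 21.5, 23.9, 28.3 and 21.8 CPM in dexamethasone mice, at 13.4 to 21.2 CPM in MC903 mice (median 17.2) and at 57.5 to 136.3 CPM in vehicle mice (median 94.5). Every mouse that received MC903 lay below every vehicle mouse, and both drug groups lay wholly above the MC903 mice. In MC903 mice *Scd3* fell 5.53-fold against vehicle mice (log2 fold change -2.47, SE 0.17, adjusted p = 3.15e-12), the deepest fall of the 10 genes in this comparison. In RGRN-305 mice it rose 1.74-fold against MC903 mice (log2 fold change 0.80, SE 0.16, adjusted p = 0.000255) and stayed at 31.4% of the vehicle mean. In dexamethasone mice the log2 fold change against MC903 mice was 0.45 (95% interval 0.08 to 0.82) with an adjusted p of 0.0552, and without MC903 replicate 6 the adjusted p was 0.0488. *Scd3* and *Dgat2l6* were the 2 genes of the set with a positive log2 fold change in dexamethasone mice against MC903 mice.

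*Elovl3* (ENSMUSG00000038754, chr19:46119917-46124133) encodes an elongase of very long chain fatty acids. It was at 224 to 329.7 CPM in RGRN-305 mice (median 272), at 45.9, 103, 100.2 and 62.0 CPM in dexamethasone mice, at 193 to 289.7 CPM in MC903 mice (median 219) and at 241 to 349.7 CPM in vehicle mice (median 289). The dexamethasone mice lay below all others, and the other groups overlapped. Against MC903 mice it fell 2.90-fold in dexamethasone mice (log2 fold change -1.54, SE 0.17), while the change in RGRN-305 mice was 0.27 on the log2 scale (95% interval 0.01 to 0.53, adjusted p = 0.106). In MC903 mice it fell by 0.37 on the log2 scale against vehicle mice (adjusted p = 0.0229), and without vehicle replicate 3 this was -0.32 with an adjusted p of 0.0538, and with no count filter the adjusted p was 0.0535. *Elovl3* was at 26.7% of the vehicle mean in dexamethasone mice and at 77.6% in MC903 mice.

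*Fa2h* (ENSMUSG00000033579, chr8:112071767-112120465) encodes a fatty acid hydroxylase and had the highest level per kilobase of the set in vehicle mice, at 289 CPM per kilobase. It was at 407 to 610.2 CPM in RGRN-305 mice (median 441), at 64.9, 128, 115 and 69.6 CPM in dexamethasone mice, at 256 to 412.5 CPM in MC903 mice (median 350.4) and at 693 to 1046 CPM in vehicle mice (median 846). Vehicle mice lay above and dexamethasone mice below all others, and 6 of the 8 RGRN-305 mice lay above all MC903 mice. *Fa2h* had the deepest fall of the set in dexamethasone mice, 3.70-fold against MC903 mice (log2 fold change -1.89, SE 0.17, adjusted p = 1.14e-09) and 9.24-fold against vehicle mice. In RGRN-305 mice it rose by a log2 fold change of 0.41 against MC903 mice (SE 0.12, adjusted p = 0.0106) and was at 53.1% of the vehicle mean.

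*Far2* (ENSMUSG00000030303, chr6:147948548-148085069) encodes a fatty acyl-CoA reductase, which makes the fatty alcohols of wax esters. It was at 303 to 393 CPM in RGRN-305 mice (median 323), at 52.7, 131.5, 99.7 and 68.5 CPM in dexamethasone mice, at 146 to 238 CPM in MC903 mice (median 193) and at 457 to 549 CPM in vehicle mice (median 481). The 4 groups did not overlap at all: vehicle mice were highest, then RGRN-305, MC903 and dexamethasone mice. *Far2* rose 1.73-fold in RGRN-305 mice against MC903 mice (log2 fold change 0.79, SE 0.12, adjusted p = 1.35e-05). It fell 2.19-fold in dexamethasone mice against MC903 mice and 2.57-fold in MC903 mice against vehicle mice. An exon of *Far2* overlaps the gene *Ergic2* on the other strand, which had 28952 counts over all libraries beside 183561 for *Far2*. Whether the reads were counted by strand is not given in the sources used here. *Far1*, which encodes the other fatty acyl-CoA reductase, did not pass the test in any of these 3 comparisons (log2 fold change 0.00, -0.17 and -0.07).

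The acyltransferase genes *Awat2*, *Dgat2l6* and *Awat1* lie within 176.0 kb of the X chromosome, a span that also holds *Igbp1* and, overlapping *Awat2* on the other strand but not in its exons, *Otud6a*. *Awat1* (ENSMUSG00000015665, chrX:99615857-99621811) encodes a wax ester synthase. It was at 70.1 to 123 CPM in RGRN-305 mice (median 91.6), at 42.4, 64.0, 67.1 and 51.8 CPM in dexamethasone mice, at 86.2 to 136 CPM in MC903 mice (median 92.1) and at 74.5 to 133 CPM in vehicle mice (median 112). The dexamethasone mice lay below all others, and the other 3 groups overlapped. *Awat1* fell 1.74-fold in dexamethasone mice against MC903 mice (log2 fold change -0.80, SE 0.17, adjusted p = 0.000354). Its log2 fold change was -0.03 in RGRN-305 mice against MC903 mice (95% interval -0.29 to 0.23) and -0.09 in MC903 mice against vehicle mice (95% interval -0.37 to 0.19), and the sign of the first was not the same under every scaling of the libraries. With unscaled library sizes the second was -0.35 with an adjusted p of 0.0252.

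*Awat2* (ENSMUSG00000031220, chrX:99445827-99486323) encodes another wax synthase, which is also known to esterify retinol. It was at 11.6 to 19.2 CPM in RGRN-305 mice (median 13.97), at 5.69, 5.66, 4.51 and 6.81 CPM in dexamethasone mice, at 5.87 to 10.45 CPM in MC903 mice (median 7.095) and at 5.14 to 9.43 CPM in vehicle mice (median 6.55). All 8 RGRN-305 mice lay above every mouse of the other groups, which overlapped. *Awat2* rose 1.91-fold in RGRN-305 mice against MC903 mice (log2 fold change 0.93, SE 0.14, adjusted p = 4.81e-06) and 2.15-fold against vehicle mice (log2 fold change 1.11, SE 0.15, adjusted p = 4.59e-07). It was the single gene of the set above the vehicle level in any treated group by the test. In MC903 mice against vehicle mice the log2 fold change was 0.18 (95% interval -0.12 to 0.47), with a sign that turned when library sizes were not scaled. In dexamethasone mice against MC903 mice it was -0.43 (adjusted p = 0.0458). That call was lost without MC903 replicate 2, 4, 6 or 8 or dexamethasone replicate 1, 2 or 3, with log2 fold changes of -0.34 to -0.43. It was also lost with upper quartile scaling (adjusted p = 0.0677), with no count filter (0.0540) and with only the 2 groups fitted (0.0587).

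*Dgat2l6* (ENSMUSG00000067597, chrX:99568444-99589750) encodes a further acyltransferase of the same family. It was at 19.1 to 42.2 CPM in RGRN-305 mice (median 30.9), at 35.3, 46.1, 34.0 and 37.4 CPM in dexamethasone mice, at 21.2 to 29.1 CPM in MC903 mice (median 26.1) and at 21.9 to 36.1 CPM in vehicle mice (median 32.7). The dexamethasone mice lay above all MC903 mice and overlapped the other groups. *Dgat2l6* rose 1.49-fold in dexamethasone mice against MC903 mice (log2 fold change 0.58, SE 0.14, adjusted p = 0.00156) and was the one gene of the set to do so by the test. Its log2 fold change in RGRN-305 mice against MC903 mice was 0.29 (95% interval 0.06 to 0.53) with an adjusted p of 0.0546. This became 0.0486 without MC903 replicate 7, 0.0314 without RGRN-305 replicate 6 and 0.00693 without RGRN-305 replicate 8. The adjusted p was 0.0238 with upper quartile scaling, 0.01965 with unscaled library sizes and 0.0320 with the mouse number as a block. In MC903 mice against vehicle mice it fell by 0.30 on the log2 scale (adjusted p = 0.0423). This call was lost without vehicle replicate 1, 2, 3 or 4 or MC903 replicate 1, 2, 5 or 8, with values of -0.26 to -0.30. It was also lost by DESeq2 (adjusted p = 0.0771), with DESeq2 size factors in edgeR (0.0593) and with no count filter (0.0663). Between RGRN-305 mice and dexamethasone mice it was -0.29 (95% interval -0.57 to -0.01, adjusted p = 0.121), and without RGRN-305 replicate 3 it was -0.36 with an adjusted p of 0.0425.

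Ratios of counts within the same ear do not depend on how the libraries are scaled, and they set the 3 neighbours side by side. The ratios were chosen after the values of these genes had been seen, so they are given as a description with no test. The ratio of *Awat2* to *Awat1* counts averaged 0.154 ± 0.027 in RGRN-305 mice and 0.0807 ± 0.0269 in MC903 mice (SD, n = 8 each), a difference of 0.98 on the log2 scale. The RGRN-305 mice ranged from 0.108 to 0.181 and the MC903 mice from 0.0436 to 0.121, so the groups overlapped at 2 MC903 mice. The ratio of *Dgat2l6* to *Awat1* counts was 0.832, 0.721, 0.508 and 0.721 in dexamethasone mice and 0.207 to 0.302 in MC903 mice. Its difference was 1.39 on the log2 scale, and the groups did not overlap. Against dexamethasone mice, RGRN-305 mice had a lower ratio of *Dgat2l6* to *Awat1* (0.264 to 0.406, log2 difference -1.09). No stretch of 150 bases, the length of a read, is shared among the transcripts of these 3 genes.

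**Figure D2:**
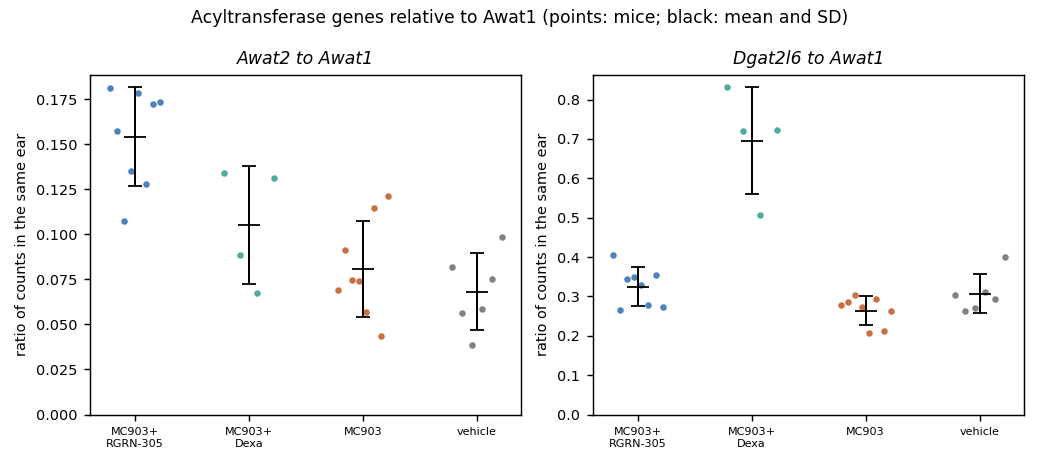
Counts of *Awat2* (left) and *Dgat2l6* (right) divided by counts of *Awat1* in the same ear (y axis, no unit, from 0), for each mouse (points) of the 4 groups (x axis), with the mean and SD in black. *Awat2* relative to *Awat1* is highest in RGRN-305 mice (mean 0.154), and *Dgat2l6* relative to *Awat1* in the 4 dexamethasone mice (0.508 to 0.832) is above all other mice.

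*Soat1* (ENSMUSG00000026600, chr1:156252095-156303864) encodes a sterol acyltransferase, which makes cholesterol esters. It was at 123 to 196 CPM in RGRN-305 mice (median 157), at 66.8, 94.1, 71.3 and 65.1 CPM in dexamethasone mice, at 100.2 to 152 CPM in MC903 mice (median 135) and at 154 to 197 CPM in vehicle mice (median 178). Dexamethasone mice lay below all others, all MC903 mice lay below all vehicle mice, and RGRN-305 mice overlapped both. *Soat1* rose by a log2 fold change of 0.29 in RGRN-305 mice against MC903 mice (SE 0.10, adjusted p = 0.0156), a change of 1.23-fold. It fell 1.74-fold in dexamethasone mice against MC903 mice and 1.36-fold in MC903 mice against vehicle mice.

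*Cidea* (ENSMUSG00000024526, chr18:67476317-67501224) encodes a protein of lipid droplets that promotes their growth. It was at 96.3 to 142 CPM in RGRN-305 mice (median 103), at 40.5, 53.2, 42.0 and 42.0 CPM in dexamethasone mice, at 58.1 to 79.4 CPM in MC903 mice (median 65.4) and at 105 to 157 CPM in vehicle mice (median 139). The 3 groups given MC903 were apart (dexamethasone mice lowest, then MC903, then RGRN-305 mice), and 5 of the 8 RGRN-305 mice lay below all vehicle mice. *Cidea* rose 1.67-fold in RGRN-305 mice against MC903 mice (log2 fold change 0.74, SE 0.09, adjusted p = 4.64e-07), to 82.0% of the vehicle mean. It fell 1.49-fold in dexamethasone mice against MC903 mice and 2.03-fold in MC903 mice against vehicle mice. *Cidea* and *Elovl3* are also known from brown fat. *Ucp1*, the defining gene of that tissue, averaged 1.05 CPM in RGRN-305 mice, 0.999 CPM in dexamethasone mice, 0.991 CPM in MC903 mice and 0.441 CPM in vehicle mice.

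*Mc5r* (ENSMUSG00000007480, chr18:68470575-68475517) encodes the melanocortin 5 receptor. It was at 12.3 to 25.8 CPM in RGRN-305 mice (median 18.9), at 9.08, 16.0, 7.28 and 7.99 CPM in dexamethasone mice, at 8.96 to 18.98 CPM in MC903 mice (median 14.3) and at 24.2 to 30.4 CPM in vehicle mice (median 28.5). All MC903 and all dexamethasone mice lay below all vehicle mice, and 7 of the 8 RGRN-305 mice did so. *Mc5r* fell 1.92-fold in MC903 mice against vehicle mice (log2 fold change -0.94, SE 0.17, adjusted p = 2.42e-05). In RGRN-305 mice the log2 fold change against MC903 mice was 0.30 (95% interval -0.01 to 0.62, adjusted p = 0.144). In dexamethasone mice it was -0.54 (SE 0.21, adjusted p = 0.0318). That call was lost without MC903 replicate 2 or 8 or dexamethasone replicate 1, 3 or 4, with log2 fold changes of -0.42 to -0.49. It was also lost with no count filter (adjusted p = 0.0646) and with only the 2 groups fitted (0.0744). Of 11 other genes of the melanocortin system (receptors, ligands, processing enzymes and partners), 5 had enough counts to be tested. *Pomc*, the precursor of the ligands, was not among them and averaged 0.114 CPM in RGRN-305 mice, 0.157 CPM in dexamethasone mice, 0.184 CPM in MC903 mice and 0.159 CPM in vehicle mice. *Mc1r*, the pigment cell receptor, rose in RGRN-305 mice against MC903 mice (log2 fold change 0.73) and fell in dexamethasone mice against MC903 mice (-0.70). *Agrp*, an antagonist of these receptors, rose in RGRN-305 mice (0.65) and fell in dexamethasone mice (-1.94). Of the 5 tested, 2 rose and 2 fell in dexamethasone mice against MC903 mice (23.0% and 23.3% of all genes), with a median log2 fold change of 0.48. The 2 that fell were *Mc1r* and *Agrp*, and the 2 that rose were among *Mrap*, *Mc2r* and the gene *a*. In RGRN-305 mice against MC903 mice 3 rose and 0 fell (18.6% and 19.4% of all genes). In MC903 mice against vehicle mice 0 rose and 3 fell (34.5% and 35.7% of all genes).

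**Figure D3:**
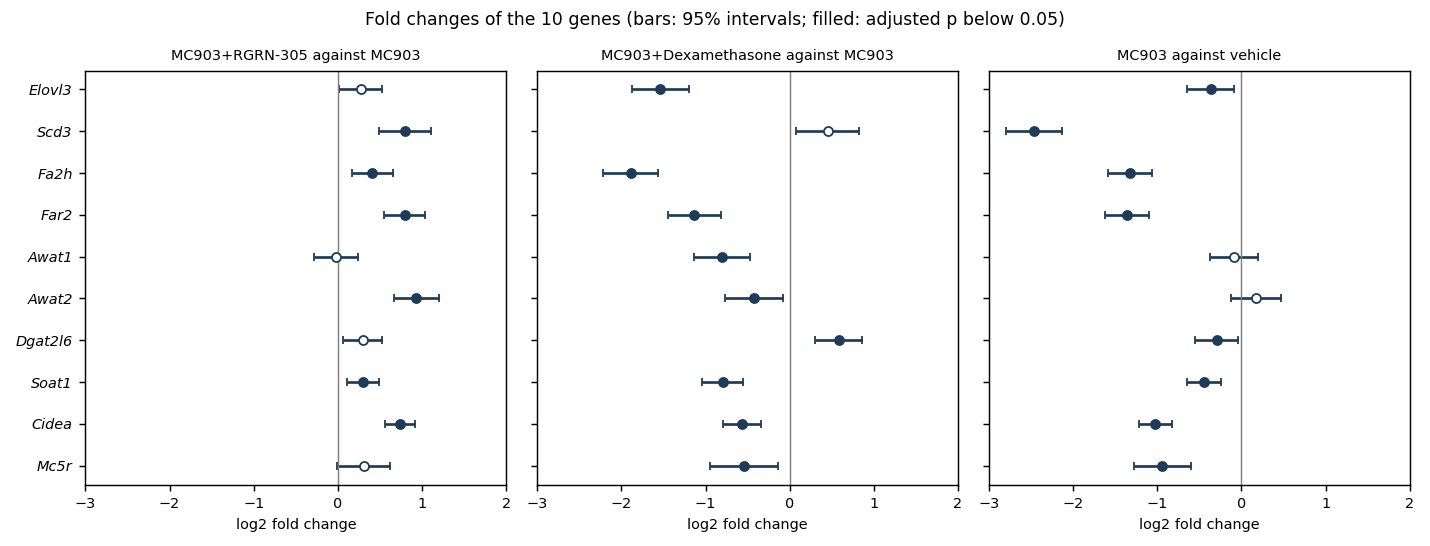
Log2 fold changes (x axis) of the 10 genes (rows) in RGRN-305 mice against MC903 mice, dexamethasone mice against MC903 mice and MC903 mice against vehicle mice, with 95% intervals as bars and filled points where the adjusted p is below 0.05. In the left panel 6 genes are called higher, in the middle panel 8 lower and *Dgat2l6* higher, and in the right panel 8 lower, with *Scd3* lowest at -2.47.

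Few of these changes passed the limit of 1.5 on the absolute log2 fold change that the study set for its DEGs. None of the 10 passed it in RGRN-305 mice against MC903 mice, where 0.560% of all genes were higher and 3.12% lower by that rule. In dexamethasone mice against MC903 mice *Fa2h* and *Elovl3* passed it as lower (5.89% of all genes) and 0 as higher (2.60%). In MC903 mice against vehicle mice *Scd3* passed it as lower (7.58% of all genes) and 0 as higher (7.46%). *Fa2h*, *Far2* and *Elovl3* passed it as higher in RGRN-305 mice against dexamethasone mice (2.15% of all genes), with folds of 4.90, 3.80 and 3.50, and 0 as lower (1.63%). Against vehicle mice *Scd3* passed it as lower in RGRN-305 mice (4.03% of all genes) and 0 as higher (3.98%). *Fa2h*, *Far2*, *Scd3*, *Elovl3* and *Cidea* passed it as lower in dexamethasone mice against vehicle mice (4.90% of all genes), and 0 as higher (4.79%).

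The groups were wholly apart for some of the genes. Of the 10, 4 lay wholly above in RGRN-305 mice against MC903 mice (3.57% of all genes) and 0 wholly below (7.18%). In dexamethasone mice against MC903 mice 2 lay wholly above (12.7% of all genes) and 6 wholly below (14.0%). In MC903 mice against vehicle mice 0 lay wholly above (20.9% of all genes) and 6 wholly below (21.1%).

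Relative to vehicle mice, the level in RGRN-305 mice differed from gene to gene. *Elovl3*, *Awat1*, *Dgat2l6* and *Soat1* did not pass the test against vehicle mice, at 93.6%, 92.4%, 99.9% and 90.2% of the vehicle mean. With unscaled library sizes *Soat1* was called lower than in vehicle mice (log2 fold change -0.34, adjusted p = 0.00521). *Scd3*, *Fa2h*, *Mc5r*, *Far2* and *Cidea* stayed lower, with log2 fold changes against vehicle mice of -1.67, -0.91, -0.64, -0.57 and -0.29. *Awat2* was at 215.5% of the vehicle mean. In dexamethasone mice the levels ran from *Fa2h* at 10.8% and *Far2* at 17.8% of the vehicle mean to *Awat2* at 83.7% and *Dgat2l6* at 121.9%.

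Other genes of sebocytes and of lipid synthesis were read from further lists, beside the shares of all genes that rose and fell (18.6% and 19.4% in RGRN-305 mice against MC903 mice, 23.0% and 23.3% in dexamethasone mice against MC903 mice, 34.5% and 35.7% in MC903 mice against vehicle mice). Of 10 other sebocyte and gland genes, 6 rose and 1 fell in RGRN-305 mice against MC903 mice, 4 rose and 3 fell in dexamethasone mice against MC903 mice, and 1 rose and 7 fell in MC903 mice against vehicle mice. *Lrig1* and *Lgr6*, which mark stem cells of the upper follicle and gland, fell in MC903 mice against vehicle mice (log2 fold change -1.31 and -1.62) and rose in RGRN-305 mice against MC903 mice (0.67 and 0.44). *Pparg*, a nuclear receptor needed for sebocyte differentiation, fell in MC903 mice (-0.87) and rose in RGRN-305 mice (0.23), and in dexamethasone mice against MC903 mice it was 0.17 with an adjusted p of 0.125. *Mgst1* and *Plin2* fell in dexamethasone mice against MC903 mice (-1.04 and -0.52), whereas *Acsbg1*, an acyl-CoA synthetase, rose there (0.65). *Krt79*, a keratin of the gland duct, fell there as well (-0.31) and did not pass the test in the other 2 comparisons.

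Of 20 genes of fatty acid and triglyceride synthesis, 9 rose and 1 fell in RGRN-305 mice against MC903 mice, 5 rose and 9 fell in dexamethasone mice against MC903 mice, and 1 rose and 14 fell in MC903 mice against vehicle mice. *Scd1*, a desaturase gene near *Scd3* on chromosome 19 that is used by many lipid-making cells, was at 2361 to 3306 CPM in RGRN-305 mice, 540.5 to 783 CPM in dexamethasone mice, 1622 to 2125 CPM in MC903 mice and 4744 to 5756 CPM in vehicle mice. The 4 groups did not overlap. *Scd1* fell in dexamethasone mice against MC903 mice (log2 fold change -1.40) where the value of *Scd3* was 0.45, and 1.08% of the 150-base windows of the *Scd3* transcript are shared with *Scd1*. The elongase *Elovl6* and the acyltransferase *Dgat1* fell in dexamethasone mice against MC903 mice (-1.04 and -1.07), while *Fasn*, the fatty acid synthase, rose both there (0.58) and in RGRN-305 mice against MC903 mice (0.54). *Thrsp*, a regulator of lipid synthesis, rose in dexamethasone mice (5.21) and in RGRN-305 mice (2.37) against MC903 mice, where it was at 0 to 0.320 CPM.

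Of 20 genes of cholesterol synthesis and uptake, 10 rose and 1 fell in RGRN-305 mice against MC903 mice, 4 rose and 3 fell in dexamethasone mice against MC903 mice, and 3 rose and 9 fell in MC903 mice against vehicle mice. In dexamethasone mice against MC903 mice both counts of this list were below the shares of all genes. The rises in RGRN-305 mice were small, with *Mvd* at 0.43, *Lss* at 0.31 and *Dhcr7* at 0.30 on the log2 scale. *Cyp51* and *Msmo1* fell in dexamethasone mice against MC903 mice (-0.56 and -0.44), and *Sc5d* and *Dhcr7* rose (0.35 and 0.32).

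Markers of the other cell types of the ear moved too, and their part in the results above was not tested. Adipocyte markers, which share lipid genes with sebocytes, were read first. Of 10, 8 fell (35.7% of all genes) and 2 rose (34.5%) in MC903 mice against vehicle mice. In dexamethasone mice against MC903 mice 8 rose (23.0% of all genes) and 1 fell (23.3%). Among those that rose were *Lep* at 2.76, *Retn* at 2.64, *Cidec* at 2.53 and *Plin1* at 2.16 on the log2 scale. The gene that fell was *Adrb3*, at 24.6% of the MC903 mean. Against MC903 mice, 5 rose (18.6% of all genes) and 1 fell (19.4%) in RGRN-305 mice. Their summed level was 124 to 224 CPM in RGRN-305 mice, 218 to 324 CPM in dexamethasone mice, 145 to 192 CPM in MC903 mice and 277 to 372 CPM in vehicle mice, and no marker of the list was at 0 in a library. *Fabp4* and *Lipe* weigh most in this sum, averaging 85.15 and 52.63 CPM in MC903 mice. There *Lipe* was at 130.3% of the vehicle mean, whereas *Lep*, *Plin1* and *Adipoq* were at 12.5%, 15.5% and 15.1%. In RGRN-305 mice *Lipe* was at 80.7% of the MC903 mean, and these 3 at 217.4%, 161.9% and 180.1%. *Cidea* fell in dexamethasone mice against MC903 mice while its relative *Cidec*, a lipid droplet protein of white fat, rose.

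Leukocyte markers rose in MC903 mice against vehicle mice (9 of 9 tested, with *Ly6g* too low to test, beside 34.5% of all genes). They fell in both RGRN-305 and dexamethasone mice against MC903 mice (9 of 9 each, beside 19.4% and 23.3% of all genes). Their summed level was 225 to 371 CPM in RGRN-305 mice, 201 to 342 CPM in dexamethasone mice, 586 to 1112 CPM in MC903 mice and 209 to 302 CPM in vehicle mice. The 10 lipid genes summed to 1372 to 1852 CPM in RGRN-305 mice and to 385 to 665 CPM in dexamethasone mice. Whether leukocyte content has a part in that difference was not tested. Epidermal markers summed to 43160 to 59940 CPM in RGRN-305 mice, 49900 to 63200 CPM in dexamethasone mice, 32860 to 50710 CPM in MC903 mice and 24350 to 32470 CPM in vehicle mice. Of the 10, 6 rose and 2 fell in RGRN-305 mice against MC903 mice (18.6% and 19.4% of all genes). In dexamethasone mice against MC903 mice 6 rose and 1 fell (23.0% and 23.3% of all genes). In MC903 mice against vehicle mice 7 rose and 2 fell (34.5% and 35.7% of all genes). Of 10 hair follicle genes, 2 fell in MC903 mice against vehicle mice (35.7% of all genes), 0 rose (34.5%) and 8 were not called. The 2 were *Krt15* and *Lgr5*, known from the bulge and lower follicle (-1.64 and -1.01). In RGRN-305 mice against MC903 mice 1 of the 10 rose (18.6% of all genes), *Krt15* (0.39), and 0 fell (19.4%). In dexamethasone mice against MC903 mice 0 of the 10 passed edgeR's test, and 0 had an unadjusted p below 0.05.

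**Figure D4:**
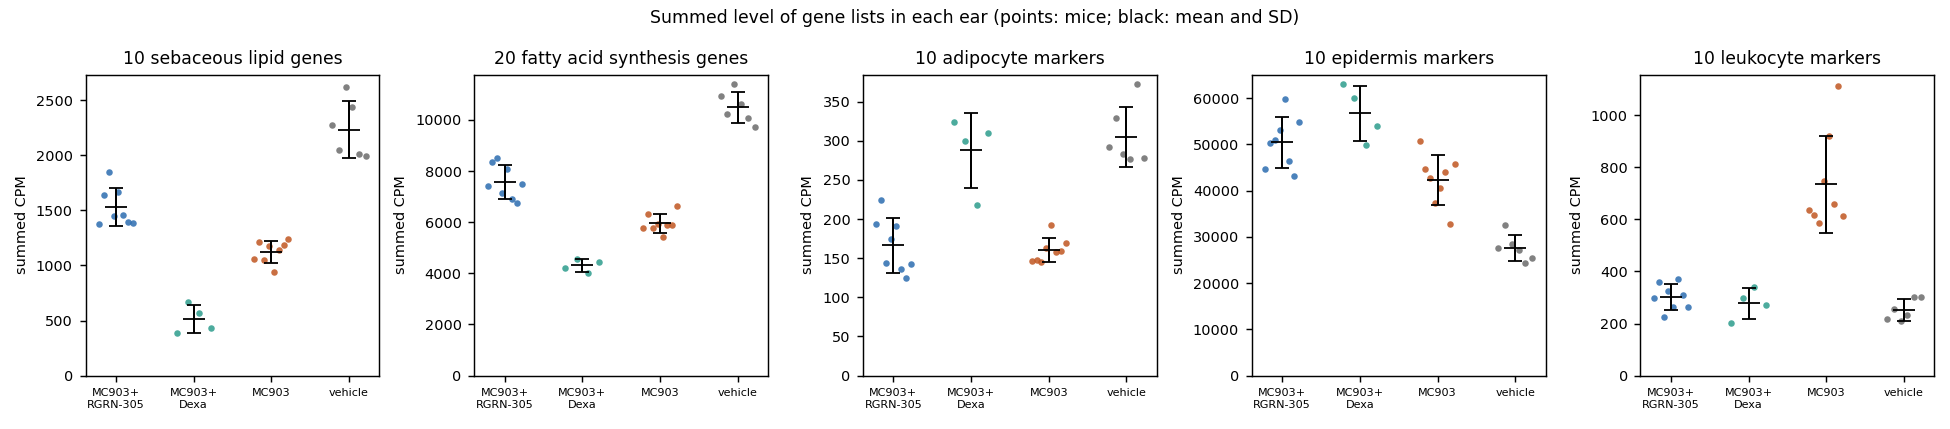
Summed CPM (y axes, linear, from 0, each with its own range) of 5 gene lists in each mouse (points) of the 4 groups (x axis), with the mean and SD in black. The 10 sebaceous lipid genes sum to 385 to 665 CPM in dexamethasone mice and 942 to 1238 CPM in MC903 mice, whereas the 10 adipocyte markers sum to 218 to 324 CPM and 145 to 192 CPM. Genes of high level weigh most in a sum: in vehicle mice *Fa2h* was at 693 to 1046 CPM and *Awat2* at 5.14 to 9.43 CPM. Among the adipocyte markers *Fabp4* averaged 85.15 CPM in MC903 mice.

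Mice of the same group differed in how much of these genes their biopsies held. After the group means were removed from log2 CPM, 39 of the 45 pairs of the 10 genes had a positive Pearson correlation over the 26 mice (median 0.339), and 12 pairs had a permutation p below 0.05 after adjustment over the 45, while 33 did not. Over all pairs of 20061 tested genes the median r was 0.00 and 49.9% were positive, beside 86.7% of the members' pairs. *Scd3* and *Mc5r* had 1 pair each that passed, with *Fa2h* (r = 0.484) and with *Cidea* (r = 0.466). By rank neither pair passed (rho = 0.49 and 0.301, adjusted permutation p = 0.0664 and 0.255). The libraries and their scaling enter both genes of a pair, and with DESeq2 size factors r moved by at most 0.017. *Fa2h* and *Far2* varied most alike (r = 0.887 and rho = 0.844, each with p = 1e-05, the smallest that 100000 permutations can give, adjusted p = 0.00045, r = 0.855 without the 2 mice farthest from the median of *Fa2h*). *Awat1* went with *Elovl3* (r = 0.745, rho = 0.722, adjusted p = 0.000675 and 0.00261, r = 0.699 without the 2 farthest mice) and with its neighbour *Dgat2l6* (r = 0.656, rho = 0.653, adjusted p = 0.00513 and 0.00585, r = 0.635 without them). *Awat2* had no pair that passed: its r ran from -0.462 with *Scd3* (adjusted permutation p = 0.0837), the lowest of the 45, to 0.473 with *Mc5r* (adjusted permutation p = 0.0664), and was -0.128 with *Awat1* (adjusted permutation p = 0.643). *Scd3* also had a negative r with *Mc5r* (-0.136) and *Cidea* (-0.13).

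The genes outside the set whose deviations most closely followed the mean standardized deviation of 5 members (*Scd3*, *Mc5r*, *Awat1*, *Awat2* and *Dgat2l6*) were sought among 15358 genes over the same 26 mice. The 5 nearest were *Cyp3a57* (r = 0.783), *Aadacl2fm2* (0.767), *Sec14l4* (0.763), *Tlcd4* (0.751) and *Rarres1* (0.744). The choice did not use the group comparisons. All 5 fell in MC903 mice against vehicle mice (log2 fold change -1.45 to -0.68), where 35.7% of all genes fell. They also fell in dexamethasone mice against MC903 mice (-1.67 to -0.23), where 23.3% of all genes fell. Of the 5, 3 rose in RGRN-305 mice against MC903 mice (*Aadacl2fm2* 0.43, *Rarres1* 0.36 and *Tlcd4* 0.35), where 18.6% of all genes rose. All 5 rose in RGRN-305 mice against dexamethasone mice (0.59 to 2.11), where 17.6% of all genes rose. *Cyp3a57* and *Sec14l4* were at 0.35 and 0.04 in RGRN-305 mice against MC903 mice and did not pass the test.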

How the data were processed

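RNA of 26 ear biopsies (1 library per mouse) was sequenced as read pairs of 150 bases after a directional library preparation. The authors aligned reads to GRCm39 with Subread (v. 2.10.3) and deposited raw counts of uniquely aligned, unambiguous reads per Ensembl gene, in 1 column per mouse. Whether strand was used, and the annotation release, are not given in the sources used here. Of 57010 identifiers, 56310 had a GENCODE M39 symbol, and the other 700 held 0.0631% of counts. Libraries of 13695023 to 35130972 counts limit genes of low count most. Groups were taken from sample titles.

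Counts were tested with edgeR (v. 4.0.16) in R (v. 4.3.3): filterByExpr (minimum count 10, minimum total 15) kept 20167 genes, and 1 robust quasi-likelihood model with TMM scaling and 1 mean per group held all libraries. P-values were adjusted by Benjamini-Hochberg over all genes within each comparison, and DEGs also had an absolute log2 fold change above 1.5. Log2 CPM had a prior count of 2, and intervals are 1.96 standard errors. P-values measure the spread between mice. Ratios and correlations used Python (v. 3.11.15) with scipy (v. 1.17.1). Promoters were read from the GRCm39 genome. The edgeR procedure was tested on simulated counts.

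The members and lists were chosen with earlier results of these data known. Named genes were all members, *Cyp24a1*, *Fkbp5* and *Tsc22d3*, the paralogs *Scd1*, *Scd2* and *Dgat2*, and of each list up to 4 genes of smallest p in MC903 against vehicle and 2 more in each drug comparison. The 5 genes most like 5 of the members were also named. *Far1*, *Ucp1*, *Pomc* and *Ly6g* and the neighbours *Ergic2*, *Otud6a* and *Igbp1* fall outside that rule and were chosen after their values were seen. Alternatives were DESeq2 (v. 1.42.0), 3 other scalings, no count filter, a mean normalized count above 25, the fold limit, fits of 2 groups, a block by mouse number and each mouse left out. The ratios, the TATAAA search and a fit without the 2 shallowest libraries were added after the data were seen. Some genes of the lists are not reported here by name.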

Additional observations from a re-analysis of the deposited data

Results flagged for a closer look

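In the 40 combinations of the 10 genes and 4 groups, 2 mice lay far from the rest of their group by Dixon's test, which chance alone gives in about 1 in 20 groups. *Awat1* was at 136.4 CPM in MC903 replicate 7, where the next highest MC903 mouse was at 102.6 CPM, a gap of 0.672 of the group's range (critical value 0.526 for 8 mice). *Cidea* was at 53.2 CPM in dexamethasone replicate 2, where the next highest dexamethasone mouse was at 41.98 CPM, a gap of 0.887 of the range (critical value 0.829 for 4 mice). Without MC903 replicate 7 the log2 fold change of *Awat1* in dexamethasone mice against MC903 mice was -0.72, and without dexamethasone replicate 2 that of *Cidea* was -0.67, both still called.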

How the results depend on the processing

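Of 540 member values under 9 alternatives, 516 kept their call, and 754 of 780 did with a mouse left out, and 0 turned sign past a threshold. The genes higher in dexamethasone mice against MC903 mice numbered 1 with all mice in the edgeR fit and 2 (with *Scd3*) by DESeq2, with upper quartile scaling, with only the 2 groups fitted and without the 2 shallowest libraries (chosen after seeing the data), and 1 to 2 with a mouse left out (2 without MC903 replicate 6). *Elovl3* was called higher in RGRN-305 mice against MC903 mice (log2 fold change 0.27 to 0.34) with upper quartile scaling, unscaled library sizes or only the 2 groups fitted. *Dgat2l6* was also called higher in that comparison with upper quartile scaling (0.35) and with unscaled library sizes (0.37). The genes lower in RGRN-305 mice against dexamethasone mice numbered 0 to 1 with a mouse left out (1, *Dgat2l6*, without RGRN-305 replicate 3). With the limit of 1.5 on the log2 fold change, the counts were 0 higher in RGRN-305 mice against MC903 mice, 0 higher and 2 lower in dexamethasone mice against MC903 mice, 1 lower in MC903 mice against vehicle mice, 3 higher in RGRN-305 mice against dexamethasone mice, 0 higher and 1 lower in RGRN-305 mice against vehicle mice, and 5 lower in dexamethasone mice against vehicle mice. Library sizes without scaling moved the median of all genes against vehicle mice by -0.19 in RGRN-305, -0.27 in dexamethasone and -0.26 in MC903 mice. They also changed the counts of all genes higher against vehicle mice to 3802, 3043 and 4407, from 6119, 5331 and 6951, and lower in dexamethasone mice to 9269, from 5921. Without scaling *Soat1* was called lower in RGRN-305 mice, *Awat1* in MC903 mice and *Awat2* in dexamethasone mice, each against vehicle mice. Their log2 fold changes were -0.34, -0.35 and -0.53 (adjusted p = 0.00521, 0.0252 and 0.0192). The cause of these changes was not tested. Mice with the same number in different groups did not deviate together (median correlation -0.06 over 32 pairs, 8 above 0.1), so the numbers pair no samples. With the mouse number as a replicate block, 7 genes rose in RGRN-305 mice against MC903 mice (with *Dgat2l6*), 7 fell in dexamethasone mice against MC903 mice (without *Awat2*) and 7 fell in MC903 mice against vehicle mice (without *Dgat2l6*). *Awat2*, with as few as 77 counts in a library, is the member that depth limits most.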
